A study of Mus musculus with 4 samples.

Results

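Cytosolic ribosomal protein genes encode the protein part of the ribosomes that translate messenger RNA outside mitochondria. They were taken here as every gene of the deposited table whose symbol is Rpl or Rps followed by a number, with or without an ending of a, x, l or l1, together with Rplp0, Rplp1, Rplp2 and Rpsa. This gave 81 of 20032 listed genes, 50 of the large subunit and 31 of the small subunit, spread over 19 chromosomes. The study sequenced RNA from the olfactory bulbs of mice aged 11 days after birth, with 4 libraries on a mixed background of C57BL/6J, 129S6 and CD1. The 2 control libraries came from littermates that carry no Cre, and the labels do not say whether these carry floxed alleles. The 2 libraries labelled Sp8/Sp9-DCKO (DCKO below) came from mice that are Sp8 Flox/Flox and Sp9 Flox/Flox and carry Dlx5/6-CIE, a Cre transgene under Dlx5/6 regulatory sequence that is active in the GABAergic lineage of the forebrain. Both deleted genes encode zinc finger factors that act in the interneurons of the bulb. How many animals gave each library is not stated, so p-values measure the spread between these libraries.

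Each ribosome joins a small subunit, which reads the messenger RNA, to a large subunit, which forms the peptide bond. Most of these proteins are needed in equal amounts, and their genes are among the most strongly transcribed in any growing cell. Many of their messenger RNAs begin with a run of C and T bases, through which the mTOR pathway sets their translation. The mammalian genome also carries many processed pseudogenes, copies of these messenger RNAs without introns, which can take reads from the genes they came from.

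Sp8 was at 32.0 and 26.7 FPKM (fragments scaled by transcript length and by the number of mapped fragments) in controls 1 and 2, and at 1.68 and 2.03 in DCKO 1 and 2. Sp9 was at 24.0 and 30.7 FPKM in the controls and at 0.0674 and 0.236 in DCKO. The deposited count columns summed to between 14632502 and 15400982 per library after the authors' scaling. Olfactory bulb markers were present in all libraries, with summed levels of 737 to 803 FPKM in controls and 1424 to 1594 in DCKO for 6 mitral and tufted cell genes. The 8 granule cell and interneuron markers summed to 794 and 821 FPKM in controls and to 83.7 and 128.8 in DCKO, and all 8 were called lower. In such bulk tissue, fewer cells of a type and less RNA per cell cannot be told apart.

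Few ribosomal protein genes were called changed. Of the 81 genes, 79 reached a mean of 1 FPKM and were tested, 48 of the large and 31 of the small subunit. By limma on log2(FPKM + 1), with Benjamini-Hochberg adjusted p below 0.05 over all 13434 tested genes, 3 were higher in DCKO and 0 were lower, which is 3.80% of those tested. Over all tested genes the same threshold called 13.0% higher and 14.3% lower, 27.3% in either direction. The 3 genes were Rpl6 of the large subunit and Rps15a and Rpsa of the small subunit. At an unadjusted p below 0.05, 12 members were higher and 1 was lower by limma, against 20.8% and 22.3% of all tested genes. Leaving out 1 library, the log2 change was 0.30 to 0.43 for Rpl6, 0.60 to 0.81 for Rps15a and 0.55 to 1.05 for Rpsa. It was -0.80 for Rpl22l1 without control 1 and -0.40 for Rps25 without DCKO 2. Such fits hold 1 library in 1 of the groups, and the members called changed with the library left out.

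The changes were small and mostly upward. The median log2 change was 0.14 over the 79 genes, with quartiles of 0.07 and 0.22 and a range from -0.42 to 1.23. It was 0.12 for the large subunit and 0.16 for the small subunit, and -0.02 over all tested genes, whose quartiles were -0.23 and 0.24. A positive sign was found in 68 of the 79, made up of 45 of 48 large subunit and 23 of 31 small subunit genes, against 6473 of 13434 genes. It was found in 50 of the 79 without DCKO 2 and in 57 with quantile normalization. A change of less than 0.5 on the log2 scale was found in 76 of the 79, against 10628 of 13434 genes. The median 95% confidence interval reached 0.256 on either side of the estimate, so that for most members a log2 change of the size of the median could not be told from 0.

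**Figure D1:**
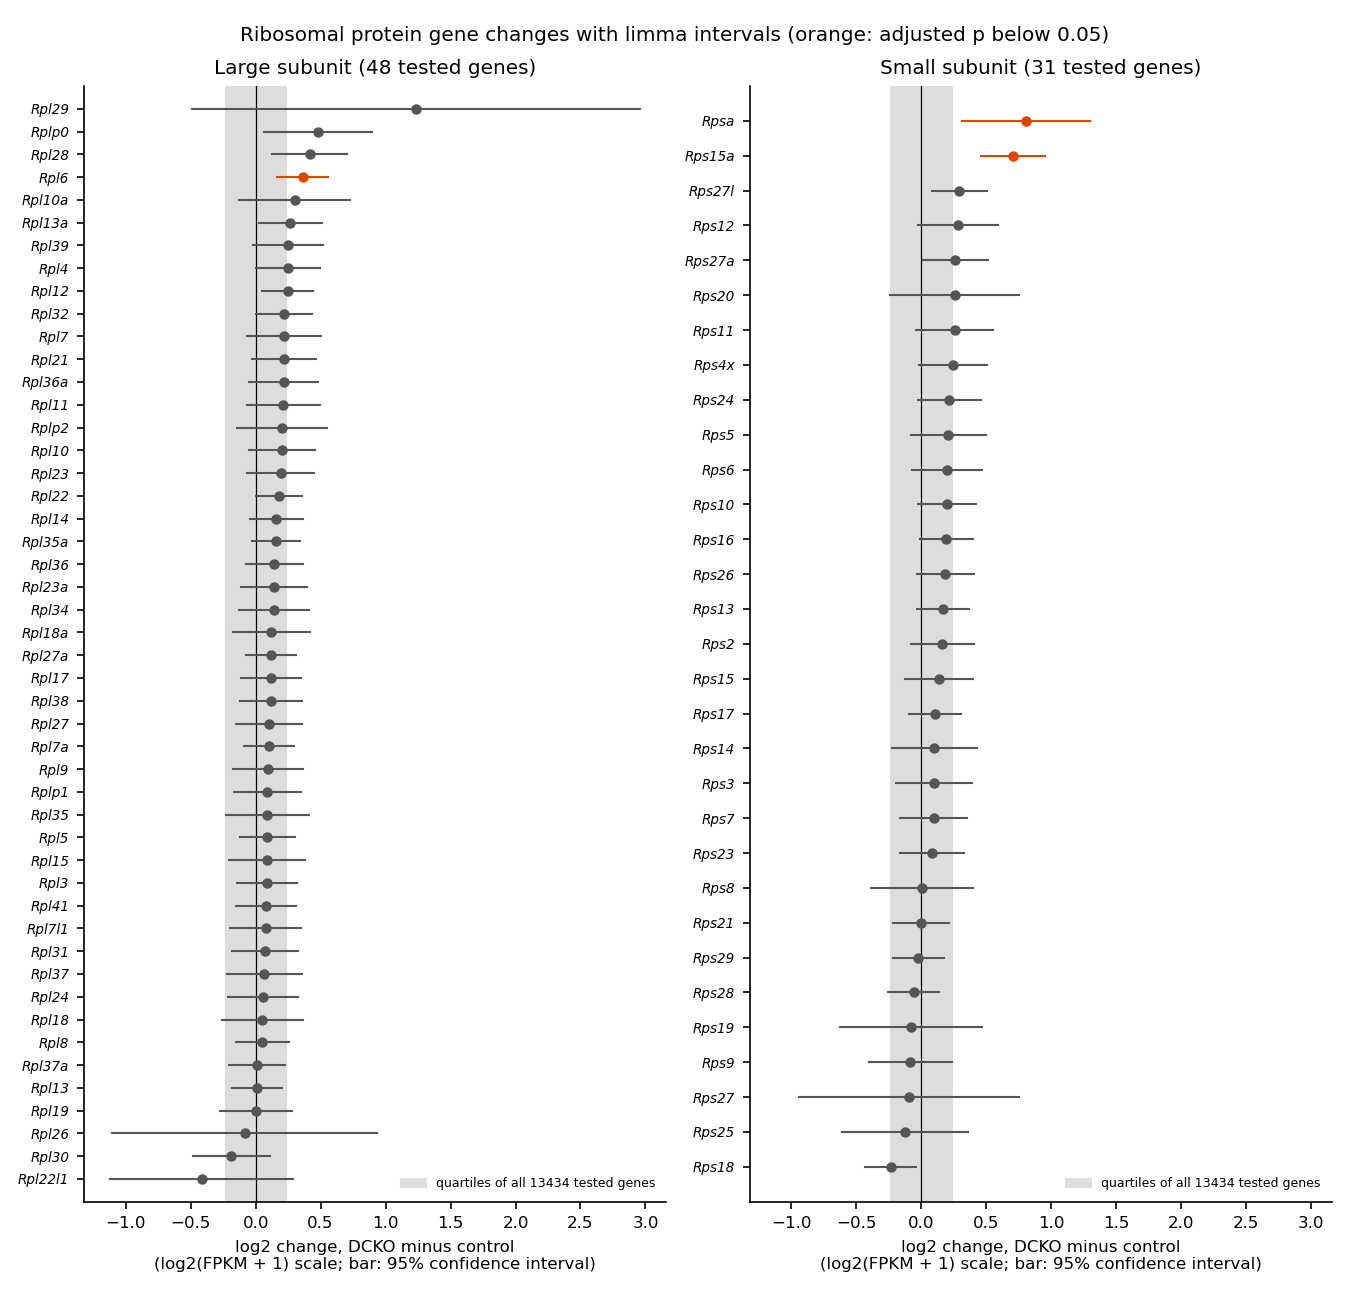
Log2 change of each tested ribosomal protein gene, DCKO minus control, on the log2(FPKM + 1) scale, with its 95% confidence interval from limma, for 48 large subunit (left) and 31 small subunit (right) genes. Orange marks Rpl6, Rps15a and Rpsa, the grey band spans the quartiles of all 13434 tested genes, and Rpl29, Rpl26, Rps27 and Rpl22l1 have the widest intervals.

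The upward shift was carried mainly by 1 of the 2 DCKO libraries. Summed over the 81 genes, the level was 24197 and 24135 FPKM in controls 1 and 2, 24968 in DCKO 1 and 28444 in DCKO 2. DCKO 1 was thus 1.03 times and DCKO 2 1.18 times the control mean. The large subunit sum was 13948 and 13969 FPKM in controls, 14610 in DCKO 1 and 16407 in DCKO 2. The small subunit sum was 10249 and 10166 FPKM in controls, 10358 in DCKO 1 and 12037 in DCKO 2. In both sums the 2 controls were lowest, DCKO 1 was next and DCKO 2 was highest. As a share of each library's total FPKM, the genes took 7.02% and 6.99% in controls, 7.23% in DCKO 1 and 8.10% in DCKO 2. Of the total of the scaled count columns they took 1.17% and 1.13% in controls, 1.23% in DCKO 1 and 1.42% in DCKO 2.

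**Figure D2:**
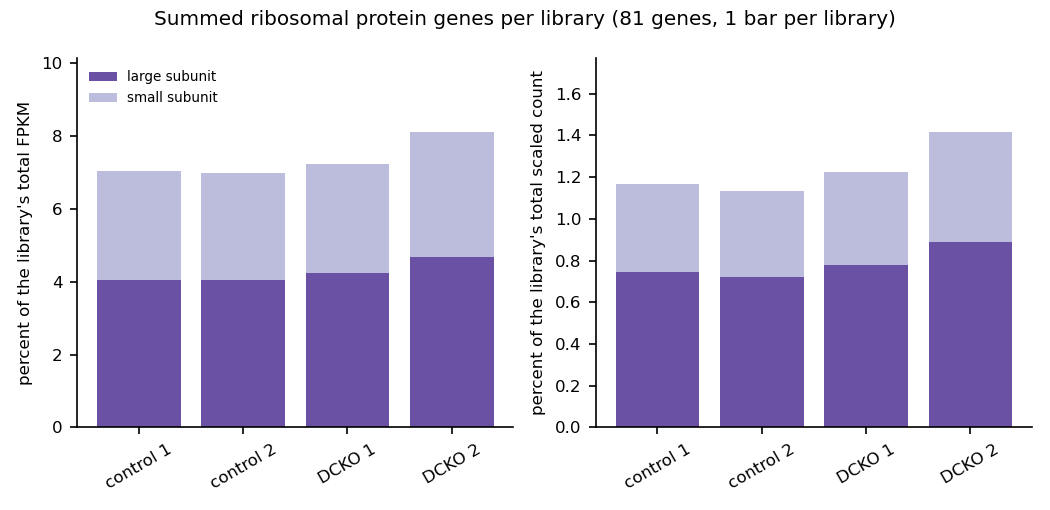
Share of each library's total FPKM (left) and of its total scaled count (right) taken by the 81 ribosomal protein genes, in percent, with 1 bar per library and the large and small subunits stacked. DCKO 2 is highest on both scales, at 8.10% of FPKM against 6.99% to 7.23% in the other 3 libraries.

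Gene by gene, DCKO 2 was mostly the highest library, and the place of DCKO 1 varied. DCKO 2 was the highest of the 4 libraries for 68 of the 79 tested members, against 28.5% of all tested genes, and it was above DCKO 1 for 74, against 59.4%. DCKO 1 was above both controls for 43 members of the 79, against 40.7% of all genes. Both DCKO libraries were above both controls for 42 members (33.9% of all genes), both were below for 3 (37.6%), and the groups overlapped for 34. The median log2 difference from the control mean was 0.05 in DCKO 1 and 0.22 in DCKO 2, against -0.03 and -0.00 over all genes. The median size of the difference between the 2 DCKO libraries was 0.21, against 0.12 over all genes, whereas the 2 controls differed by a median of 0.07, against 0.08. Short transcripts give few counts per FPKM, and 70 of the 79 members fell in the lowest of 5 equal bins of count per FPKM. The 2617 other genes of that bin had a median difference between DCKO 2 and DCKO 1 of 0.03, against 0.19 over all 79 members. These genes were not matched to the members in level, and the part of transcript length was not tested.

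**Figure D3:**
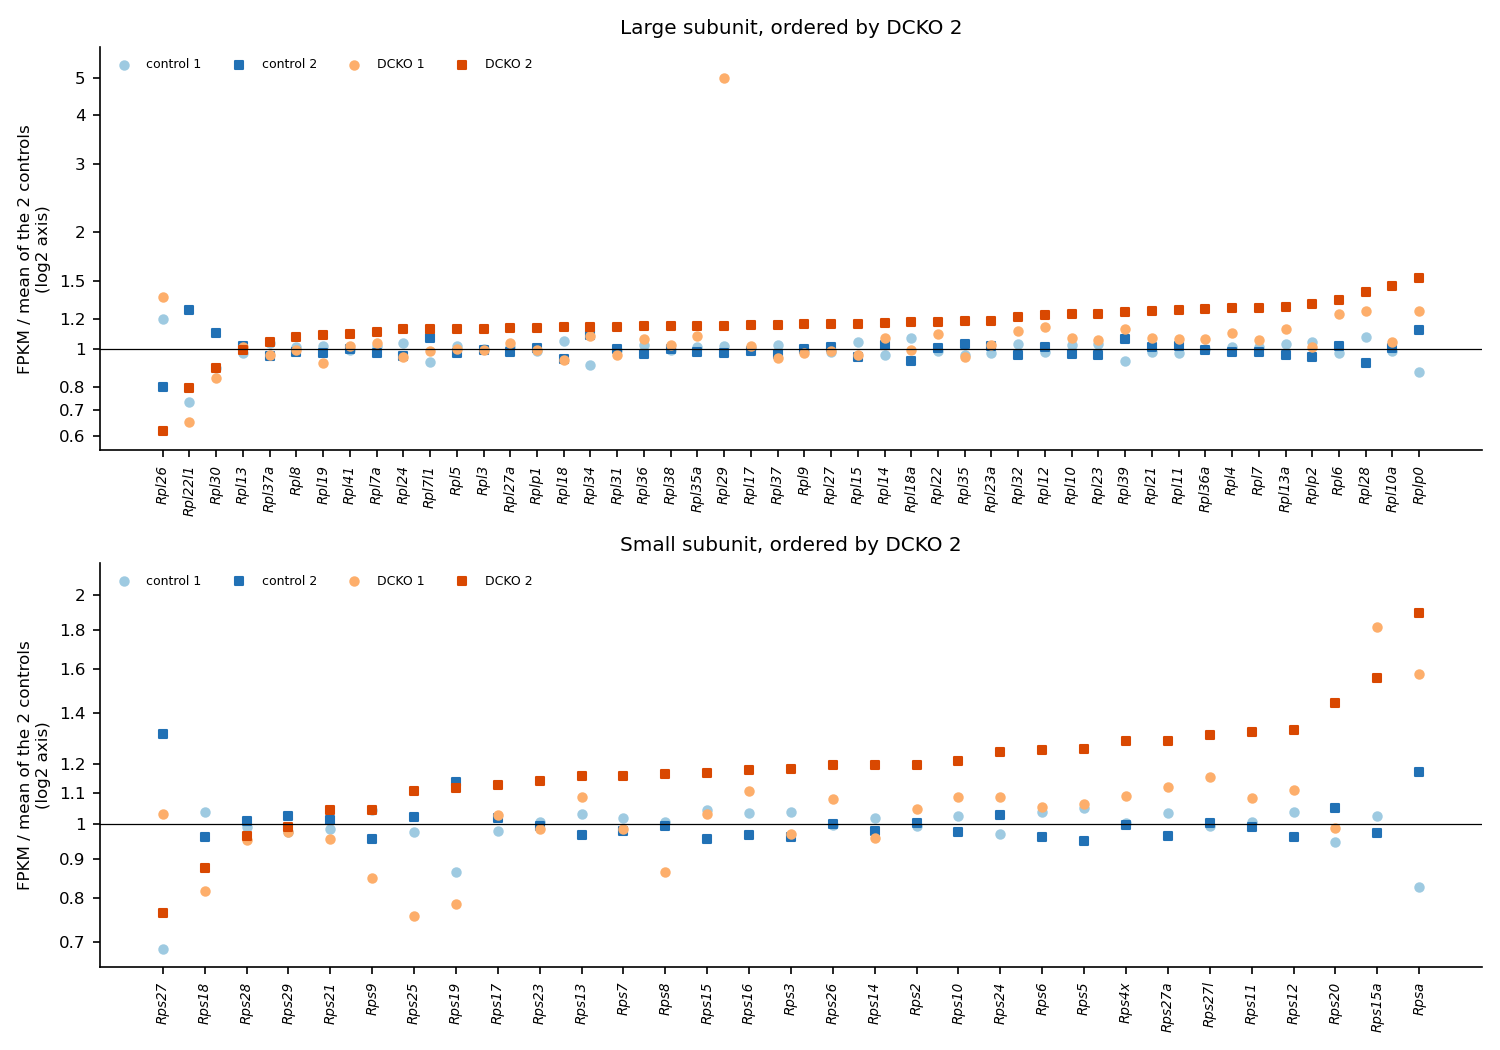
FPKM of each tested ribosomal protein gene in each library, divided by the mean of the 2 controls, on a log2 axis, with large subunit genes above and small subunit genes below, ordered by DCKO 2. DCKO 2 (dark orange squares) is the highest library for 68 of 79 genes, and the light orange point for Rpl29 in DCKO 1 stands far above the rest.

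Marker genes of other cell types also differed between libraries. Summed levels in DCKO 1 and DCKO 2 were 44.6 and 67.8 FPKM for 6 dividing cell markers, 1248 and 1764 for 3 erythroid markers, and 925 and 528 for 5 oligodendrocyte markers. For 5 neuroblast markers they were 609 and 680 FPKM. The corresponding sums in controls 1 and 2 were 32.1 and 31.2 for dividing cells, 516 and 216 for erythroid cells, 535 and 715 for oligodendrocytes, and 861 and 864 for neuroblasts. Markers of olfactory sensory neurons, whose axons enter the bulb, summed to 116.5 FPKM in control 1 and to 29.9 to 40.3 in the other 3 libraries. Of these lists, 5 of 6 dividing cell and 2 of 3 erythroid markers were called higher, and 3 of 5 neuroblast markers lower. Some lists, these dividing cell and erythroid lists among them, were higher in both DCKO libraries than in both controls. The 5 astrocyte markers summed to 384 and 388 FPKM in controls and to 782 and 730 in DCKO, with 4 of 5 called higher. The 5 microglia markers summed to 51.9 and 50.1 in controls and to 63.3 and 66.8 in DCKO, with 3 of 5 called higher, and the 3 endothelial markers to 105.7 and 102.6 in controls and to 135.7 and 132.1 in DCKO, with 1 called higher. No marker of these lists was at 0 in any library. The part of these differences in the ribosomal protein values was not tested.

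Rps15a, a small subunit protein, had the lowest adjusted p among the members. It was at 13.2 and 12.5 FPKM in controls and at 23.3 and 20.0 in DCKO 1 and 2. Both DCKO libraries stood well above both controls, and here DCKO 1 was the higher. DCKO exceeded control by 0.71 on the log2 scale, with an SE of 0.0952 and a 95% interval of 0.46 to 0.95, and by 1.69 times as a ratio of means (limma adjusted p = 0.0102). The call was kept in every alternative fit that was run. The gene (ENSMUSG00000008683) lies on the minus strand of chromosome 7 from 118104372 to 118116188 in GRCm38. Its count per FPKM was 105, against a median of 6.64 over the members, and its longest annotated messenger RNA has 5179 bases, so its FPKM level is not comparable with those of other members.

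Rpsa encodes the small subunit protein also known as the laminin receptor and lies on chromosome 9 from 120127689 to 120132369. It was at 102 and 145 FPKM in controls and at 194 and 234 in DCKO. The groups did not overlap, and the 2 controls were far apart. DCKO exceeded control by 0.80 on the log2 scale, with an SE of 0.191 and a 95% interval of 0.31 to 1.30 (limma adjusted p = 0.0380). The call was lost without control 1 (limma adjusted p = 0.0617), without DCKO 1 (0.0777) and without DCKO 2 (0.125), and also with no filter on low values (0.125) and with no variance trend (0.0503).

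Rpl6, a large subunit protein encoded on chromosome 5 from 121204481 to 121209241, was at 160 and 167 FPKM in controls and at 202 and 220 in DCKO. The groups did not overlap, and each was narrow. DCKO exceeded control by 0.36 on the log2 scale, with an SE of 0.0762 and a 95% interval of 0.17 to 0.56 (limma adjusted p = 0.0284). The call was lost without control 1 (limma adjusted p = 0.161), without control 2 (0.119), with the replicate number as a block (0.0523) and with no filter on low values (0.0696).

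The stalk of the large subunit recruits the translation factors that hydrolyse GTP, and it is built from Rplp0, Rplp1 and Rplp2. Rplp0, the base of the stalk, was at 257 and 331 FPKM in controls and at 370 and 449 in DCKO. Its log2 change of 0.48 missed the threshold (limma adjusted p = 0.0840), although it passed with the replicate number as a block (0.0370). Rplp1 was at 944 and 962 FPKM in controls and at 951 and 1083 in DCKO, with DCKO 1 between the controls. Rplp2 was at 35.8 and 32.6 FPKM in controls and at 34.8 and 44.7 in DCKO, and its copy and named pseudogene are described below. None of the 3 was called, and their 95% confidence intervals overlapped, from 0.06 to 0.90 for Rplp0, from -0.17 to 0.35 for Rplp1 and from -0.14 to 0.55 for Rplp2.

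Among the most abundant members of the large subunit, Rpl41, a very short peptide, was at 1301 and 1314 FPKM in controls and at 1332 and 1434 in DCKO. Rpl38, linked to the translation of Hox messenger RNAs, was at 786 and 794 in controls and at 811 and 906 in DCKO. Rpl23a, at the exit of the peptide tunnel, was at 590 and 613 in controls and at 619 and 712 in DCKO. None of these 3 was called, with log2 changes of 0.08, 0.12 and 0.14. With quantile normalization the sign of the first 2 turned, and Rpl41 was then called lower (log2 -0.33, limma adjusted p = 0.0326).

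The 4 most abundant small subunit members did not pass the test. Rps12 was at 799 and 741 FPKM in controls and at 853 and 1024 in DCKO (log2 0.28). Rps14, at the platform of the subunit, was at 683 and 657 in controls and at 643 and 802 in DCKO (0.10). Rps28 was at 731 and 743 in controls and at 703 and 711 in DCKO (-0.06). Rps21 was at 607 and 623 in controls and at 588 and 641 in DCKO (-0.00). For Rps12 both DCKO libraries were above both controls, as for 33.9% of all tested genes. For Rps28 both were below, as for 37.6%.

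Rps6, the substrate of S6 kinase in the mTOR pathway, was at 125 and 116 FPKM in controls and at 127 and 151 in DCKO. Its log2 change was 0.20 with a 95% confidence interval from -0.07 to 0.47. Rps19, a gene mutated in Diamond-Blackfan anaemia, was at 83.5 and 109.7 FPKM in controls and at 75.9 and 107.8 in DCKO. Its libraries were as far apart within a group as between groups. Rpl5 and Rpl11 bind Mdm2 when ribosome assembly is disturbed. Rpl5 was at 103.9 and 100.1 FPKM in controls and at 102.5 and 115.0 in DCKO, and Rpl11 at 394 and 411 in controls and 428 and 510 in DCKO. Rpl10, which joins the large subunit late in its maturation, was at 340.3 and 321 in controls and at 353 and 409 in DCKO, and Rps4x, encoded on the X chromosome, at 341 and 339.5 in controls and 371 and 438 in DCKO. For Rpl10, Rpl11 and Rps4x the order was again both controls, then DCKO 1, then DCKO 2, and none of the 6 genes was called. Without DCKO 1, Rps4x passed (log2 0.36, limma adjusted p = 0.0404).

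Some genes lay just short of the threshold, and they are named after their values were seen. Rpl28 was at 422 and 363 FPKM in controls and at 494 and 554 in DCKO (log2 0.42, limma adjusted p = 0.0504). It passed in 5 of the alternative fits, with a limma adjusted p from 0.0353 to 0.0486. Rpl12 was at 276 and 286 in controls and at 322 and 345 in DCKO (0.25, limma adjusted p = 0.0689). With 75th percentile scaling Rpl12 passed (log2 0.30, limma adjusted p = 0.0376). Rps18 was at 99.0 and 91.7 in controls and at 78.0 and 83.6 in DCKO (-0.24, limma adjusted p = 0.0767). Rps18 was the member with the lowest p among those with a negative sign.

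No paralog beside a parent gene was called with all 4 libraries. Rps27l, a p53-responsive relative of Rps27, was at 47.6 and 48.0 FPKM in controls and at 55.2 and 62.6 in DCKO (log2 0.29, limma adjusted p = 0.0571). Without DCKO 1 it passed (log2 0.38, limma adjusted p = 0.0339), as it did with 3 of the scalings. Rpl22l1, which can replace the RNA-binding protein Rpl22, was at 58.9 and 101.7 in controls and at 52.2 and 64.1 in DCKO. Its log2 change of -0.42 was the most negative among the members but was within the gap between the controls (limma adjusted p = 0.294), and without control 1 it was -0.80 (limma adjusted p = 0.0176). Rpl22 itself was at 56.1 and 57.0 in controls and at 61.8 and 66.7 in DCKO. Rpl7l1 lay between 13.0 and 15.8 in the 4 libraries, with overlapping groups, beside Rpl7 at 361 and 352 in controls and 377 and 454 in DCKO. Rpl7 passed without DCKO 1 (log2 0.35, limma adjusted p = 0.0447). The 2 members below the filter were Rpl39l, at 0.455 and 0.0843 FPKM in controls and 0.178 and 0.255 in DCKO, and Rpl3l, the striated muscle form of Rpl3, at 0.559 and 0.163 in controls and 0.273 and 0.204 in DCKO. Their parents were abundant, with Rpl39 at 486 and 556 in controls and 589 and 649 in DCKO, and Rpl3 at 384 and 382 in controls and 382 and 433 in DCKO.

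Rpl29, a basic protein of the large subunit, had the largest estimate and the widest spread. It was at 26.9 and 25.7 FPKM in controls, at 130.9 in DCKO 1 and at 30.2 in DCKO 2. The log2 change of 1.23 therefore rested on 1 library (limma adjusted p = 0.220). Without DCKO 1 it was 0.19, and without DCKO 2 it was 2.27 (limma adjusted p = 0.00536). The second widest spread was in Rpl26, which is described with its copy.

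Near-identical copies bear on several members. The coding sequences of the 81 genes were aligned to annotated mouse transcripts, and 984 other genes matched at 90% identity or more over at least 80% of the length, 958 of them processed pseudogenes. They belonged to 76 members, but only 20 of these copies have values in the deposited table, for 18 members. Rps15a-ps6, a copy of Rps15a, was at a mean of 75.7 FPKM over the libraries, against 17.2 for the gene. For 4 other members a copy was far more abundant than the gene. The gene and copy sequences are shown for 3 of them because they differ at so few bases. Each stretch has 60 coding bases around a difference, which is in capitals.
Rpl26: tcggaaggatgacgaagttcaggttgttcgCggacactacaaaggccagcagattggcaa
Gm15772: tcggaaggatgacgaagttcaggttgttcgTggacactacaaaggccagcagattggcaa
Rpl30: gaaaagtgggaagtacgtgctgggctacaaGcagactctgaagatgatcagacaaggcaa
Gm12191: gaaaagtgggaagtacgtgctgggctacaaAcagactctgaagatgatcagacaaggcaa
Rpl34: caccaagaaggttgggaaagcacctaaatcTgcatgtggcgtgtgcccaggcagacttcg
Rpl34-ps1: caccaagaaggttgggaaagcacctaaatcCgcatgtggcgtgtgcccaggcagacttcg

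Rpl26 was at 25.6 and 17.0 FPKM in controls and at 29.1 and 13.2 in DCKO. Its copy Gm15772, identical at 436 of 438 coding bases, was at 568 and 582 in controls and at 640 and 783 in DCKO. Rpl26 thus varied without regard to group, while in the copy both DCKO libraries were above both controls and DCKO 2 was highest. Rpl30 was at 23.1 and 28.4 in controls and at 21.7 and 23.1 in DCKO, whereas Gm12191, identical at 347 of 348 bases, ranged from 327 to 368. Rpl34 ranged from 7.12 to 8.90, the lowest mean of any tested member, and Rpl34-ps1, identical at 352 of 354 bases, was at 616 and 642 in controls and at 694 and 767 in DCKO. Rps27 was at 29.2 and 56.1 in controls and at 44.0 and 32.6 in DCKO, and Gm9846, identical at all 255 bases, was at 875 and 862 in controls and at 876 and 1060 in DCKO. None of these 4 members and none of these 4 copies was called. In the scaled count columns, the same 4 members were the only ones whose values fell off the whole multiples of 1 step per library in all 4 libraries, and 77 members did not. Values for these genes and copies are therefore uncertain one by one. The sum of Rpl26 and Gm15772 was 594 and 599 FPKM in controls and 669 and 796 in DCKO.

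**Figure D4:**
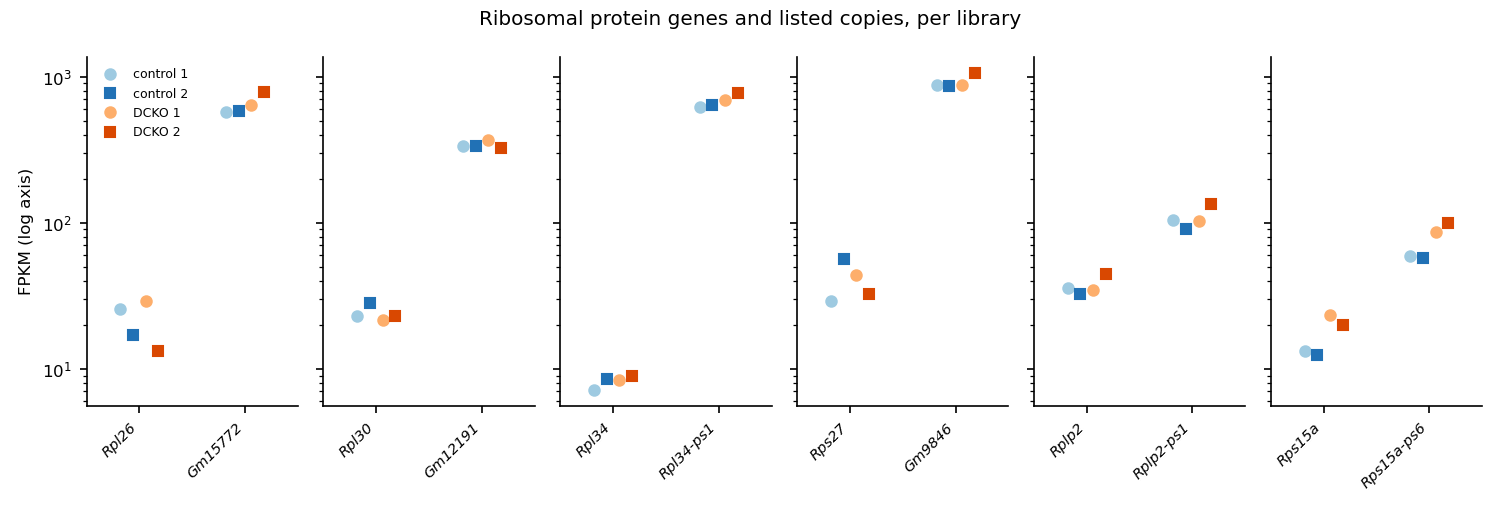
FPKM of 6 ribosomal protein genes and a listed near-identical copy of each, or for Rplp2 a gene named as its pseudogene, per library, on a log axis. Gm15772, Gm12191, Rpl34-ps1 and Gm9846 lie far above Rpl26, Rpl30, Rpl34 and Rps27, while Rps15a and Rps15a-ps6 are both higher in DCKO.

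Rps15a, which was called, also has a copy in the table. Rps15a-ps6 was at 59.1 and 57.5 FPKM in controls and at 85.8 and 100.2 in DCKO, and it was called higher (log2 0.66, SE 0.0932, limma adjusted p = 0.0114), a call lost with no filter (0.0516). The copy shares 388 of 393 coding bases with the gene, so reads may be assigned to either. The scaled counts of Rps15a lay on whole steps in every library. Whether the 2 calls are independent was not tested. Their sum was 72.3 and 70.0 FPKM in controls and 109 and 120.2 in DCKO. Wdr89, which matches Rplp2 at 346 of 348 coding bases, lay between 4.05 and 5.14 FPKM. Rplp2-ps1 was at 104 and 91.0 in controls and at 103 and 134 in DCKO, above Rplp2 in every library, and it was not called. The other pseudogene symbols with the highest values were Rps19-ps3, between 6.41 and 10.7, and Rps15a-ps4, between 0.640 and 2.02.

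Many of these genes carry a run of C and T bases near their annotated start. In RefSeq promoter windows (GRCm38.p6), 61 members had an entry, and 49 of them (80.3%) held at least 8 consecutive C or T bases between 30 bases before and 50 bases after the annotated start, on the sense strand. The share was 32 of 38 for the large subunit and 17 of 23 for the small subunit, and 32.3% over all 27025 genes of the table. A GC box, GGGCGG or CCGCCC, lay in 37 of the 61 windows of 250 bases before to 50 after the start (60.7%), against 38.2% of all genes and 55.9% of genes listed in the deposited table. The runs are shown for the 3 called genes and for Rps21, Rpl19 and Rpl13, whose log2 changes were nearest to 0 among members in the table. Capitals mark the longest run of C and T.
Rps15a: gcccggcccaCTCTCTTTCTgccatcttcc
Rpl6: gctgccttagTTCTCTTTCCCgtcttgca
Rpsa: tccggccgcccgTCCTTTCgcgctacccgg
Rps21: gcacgagctaCTTCCTTTCTgcgctc
Rpl19: gcccacaagCTCTTTCCTTTCgctgct
Rpl13: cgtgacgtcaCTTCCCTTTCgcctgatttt

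These stretches lie at chr7:118116143-118116172 (minus strand), chr5:121204522-121204550, chr9:120127774-120127803, chr2:180257403-180257428, chr11:98026947-98026973 and chr8:123102324-123102353 (plus strand) in the order given. Counted from the annotated start, the run begins at -15 in Rps15a, 31 in Rpl6 and 20 in Rpsa. It begins at 34 in Rps21, 32 in Rpl19 and -16 in Rpl13, so none begins at that start. The run has 10 bases in Rps15a, 11 in Rpl6 and 7 in Rpsa, and 10 in Rps21, 12 in Rpl19 and 10 in Rpl13. The run of Rpsa is thus shorter than the minimum of 8, so 1 of the 3 called genes does not hold a run by that rule, while the 3 genes with changes near 0 do. Rpl19 was at 486 and 464 FPKM in controls and at 437 and 518 in DCKO, and Rpl13 at 510.1 and 532 in controls and 528 and 519.9 in DCKO. A run is a match of letters and was not tested as a site.

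Some ribosomal protein genes have symbols outside the rule, and 4 of them are given here. Fau was at 337 and 342 FPKM in controls and at 350.2 and 376 in DCKO. Rps3a1 was at 297 and 300.2 in controls and at 296 and 346 in DCKO, and Rpl36al at 155 and 167 in controls and 163 and 176 in DCKO. Gnb2l1, which encodes the scaffold protein RACK1 of the small subunit, was at 246 and 227 in controls and at 218 and 268 in DCKO. None of these 4 was called, and their log2 changes ran from 0.03 to 0.10. Rps4y2, a relative of Rps4x outside the rule that is named after its values were seen, was at 11.7 and 14.6 in controls and at 8.53 and 9.57 in DCKO and was called lower (log2 -0.49, limma adjusted p = 0.0456). That call was lost without control 2 (limma adjusted p = 0.180), without DCKO 1 (0.142) and without DCKO 2 (0.0780). It was also lost with no filter (limma adjusted p = 0.123), quantile normalization (0.0613), 75th percentile scaling (0.0566), no variance trend (0.0575) and scaled counts (0.124).

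Genes that build or regulate ribosomes were counted by lists, to be read against the 13.0% of all tested genes that were higher and the 14.3% that were lower. Of 45 ribosome assembly factors, 2 were higher and 8 were lower, with a median log2 change of -0.13 against -0.02 over all genes. Those with the largest changes were Nvl, an ATPase of large subunit assembly, at 12.8 and 13.2 FPKM in controls and 6.77 and 6.92 in DCKO (log2 -0.83), Rrp9, a protein of the particle that processes ribosomal RNA, at 16.4 and 16.2 in controls and 11.2 and 9.67 in DCKO (-0.60), and Nmd3, the export adaptor of the large subunit, at 9.66 and 10.1 in controls and 5.66 and 6.78 in DCKO (-0.60). Of 37 translation factors, 3 were higher and 1 was lower, with a median of 0.09. Eif3f rose by a log2 change of 0.48 and Eif3l by 0.28, both subunits of the initiation factor that binds the small subunit, and Eif4h, a helper of the RNA helicase of initiation, fell by 0.28.

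Of 18 genes of the mTOR pathway and of regulators of messenger RNAs with C and T runs, 2 were higher and 2 lower (median 0.01). Deptor, an inhibitor of mTOR, rose by 0.60, Zfp36l1, a factor that destabilises messenger RNAs, rose by 0.62, and Eif4ebp2, a repressor of cap-dependent initiation, fell by 0.42. Of 11 tested p53 target genes, 1 was higher and 2 were lower (median 0.09), with log2 changes of 0.56 in Ccng1, -0.36 in Bax and -0.31 in Mdm2. Of 11 snoRNA host genes, 2 were higher and 1 lower (median 0.11), with changes of 0.81 in Snhg7, 0.36 in Snhg12 and -0.49 in Snhg8. Of 76 mitochondrial ribosomal protein genes, 2 were higher and 4 lower (median -0.01), with changes of 0.52 in Mrpl48, -0.46 in Mrpl53 and -0.36 in Mrpl4. Over all tested genes 27.3% passed in either direction, and in each of the 6 lists most tested members did not pass.

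Many of these list calls rested on all 4 libraries. Over the 6 lists 12 genes were higher and 18 lower, and leaving out 1 library gave from 5 to 14 higher and from 2 to 22 lower. Without control 1, Eif3f, Eif3l, Eif4h, Eif4ebp2, Bax, Mdm2, Snhg8, Snhg12 and Mrpl4 missed the threshold (limma adjusted p from 0.0527 to 0.181). Without control 2, the same 9 and Nmd3, Zfp36l1 and Mrpl53 missed it (0.0531 to 0.236). Without DCKO 1, Eif3l, Eif4h, Bax, Mdm2, Snhg8, Snhg12 and Mrpl4 missed it (0.0543 to 0.113), and without DCKO 2 Mdm2, Snhg8 and Snhg12 did (0.0536 to 0.0588). Nvl, Rrp9, Deptor, Ccng1, Snhg7 and Mrpl48 passed in each of these 4 fits.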

How the data were processed

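TopHat, Cufflinks 2.1.1 and the build GRCm38.p4 are named in the submitters' processing notes. The annotation, the strand setting and the version of TopHat are not given in the sources used. FPKM values were made by the authors and used as deposited. The deposited columns headed count are a signal: they look like fragment counts to which each library's own factor was applied, because from 98.5% to 98.8% of nonzero values are, within 0.05, a whole number of steps. No count model was applied to them. Each column was matched to its sample by the code in the sample descriptions.

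DCKO was compared with control with limma 3.58.1 (R 4.3.3), two-sided, after the transform log2(FPKM + 1). The variance prior followed intensity (2.91 prior degrees of freedom), and genes averaging under 1 FPKM were left out. This scale understates the change of low genes. On simulated data with 200 changed genes among 13434, 98% were recovered at a log2 change of 1 and 100% at 2, with 21 false among 219 calls. The changed genes were drawn from those with a mean log2(FPKM + 1) above 2, and the noise was independent between genes. Changes smaller than 1 were not simulated, so recovery at the sizes estimated for most members is not known. Copies were found with BLAST+ 2.17.0 in GENCODE M21 transcripts. Promoter windows come from RefSeq.

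Members, lists and tests were chosen with earlier results of these data known. Genes named are, by rule, the 4 most abundant members of each subunit, called members, paralogs with their parents, members below the filter, the 2 of widest spread, 12 members of known roles, ribosomal protein genes outside the symbol rule (1 is not reported here), the most abundant pseudogene symbols and up to 3 called genes per list. Alternatives were the pseudocount, the filter, the scaling, the trend, the replicate block, the scaled counts and leaving out each library.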

Additional observations from a re-analysis of the deposited data

How the results depend on the processing

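The medians of both subunits and the ratio of summed FPKM kept their direction in every setting run. Leaving out 1 library gave medians of 0.05 to 0.21 (large) and 0.07 to 0.24 (small) and ratios of 1.03 to 1.18, the lowest of each without DCKO 2. Over members with no near-identical copy in the table, a choice made after seeing the data like the leave-one-out ratios, the medians were 0.12 and 0.15, the ratio was 1.11, and 2 members were called higher.

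The count of members called higher was 1 with no filter, 6 with 75th percentile scaling and 5 with median-of-ratios scaling, and ran from 1 to 11 when 1 library was left out. Members called lower numbered 1 with quantile normalization and 0 to 1 when 1 library was left out. Over all tested genes, no filter gave 732 higher and 1045 lower, and leaving out 1 library gave 806 to 1384 higher and 1030 to 1875 lower. The share of all tested genes called in either direction was 8.87% with no filter, 28.1% with 75th percentile scaling and 28.0% with median-of-ratios scaling. It was 25.6% with no variance trend and 20.3% with the replicate block. Fits without 1 library hold 1 library in 1 of the groups, so their counts of members are not a result about these genes. In the main fit the 6 related lists held 45, 37, 18, 11, 11 and 76 tested genes. Over these lists, no filter gave 7 higher and 7 lower, quantile normalization 20 higher and 75th percentile scaling 20 higher. There no variance trend gave 7 higher and 11 lower, and the replicate block 10 lower. Leaving out 1 library gave 5 to 14 higher and 2 to 22 lower. With no filter p-values are adjusted over more genes. The cause of the shifts was not tested.

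With the replicate block, 3 members were higher, Rplp0, Rps15a and Rpsa, with an adjusted p of 0.0370 for Rplp0 by limma. The numbers do not pair the libraries by the labels, and the deviations of same-numbered libraries had a correlation of -0.02.

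Signs of small changes turned. With quantile normalization the log2 changes were -0.33 for Rpl41, -0.18 for Rplp1, -0.044 for Rpl38, -0.028 for Rpl3, -0.093 for Rpl19 and -0.10 for Rpl13. With scaled counts Rpl38 was at -0.050. Rps21 was at 0.054 with 75th percentile scaling and at 0.017 with median-of-ratios scaling. With total FPKM scaling Rpl19 was at -0.0092 and Rpl13 at -0.0044. Leaving out 1 library, the ranges were -0.0035 to 0.18 for Rplp1, -0.058 to 0.26 for Rps14, -0.064 to 0.060 for Rps21, -0.020 to 0.17 for Rpl7l1, -0.0039 to 0.18 for Rpl3, -0.55 to 0.36 for Rps27, -0.63 to 0.46 for Rpl26, -0.33 to 0.17 for Rps19, -0.12 to 0.13 for Rpl19, -0.021 to 0.038 for Rpl13 and -0.40 to 0.15 for Rps25. The median of all genes moved by less than 0.1 on the log2 scale in every setting.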
